A study of Mus musculus with 6 samples.

Results

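The NRF2 antioxidant genes described here are 10 genes of 29955 in the deposited expression table. They were chosen by symbol and comprise the transcription factor gene Nfe2l2, which encodes NRF2, its inhibitor Keap1, and the NRF2 target genes Nqo1, Hmox1, Gclc, Gclm, Txnrd1, Srxn1, Gsr and Slc7a11. Their mRNA levels were compared between Rnf40+/+ and Rnf40-/- mouse embryonic fibroblasts (MEFs) to ask how the expression of these genes differs when RNF40 is lost. RNF40 is a subunit of the E3 ubiquitin ligase that monoubiquitinates histone H2B. RNA-seq was performed on 3 libraries of each genotype, all from MEFs at passage 3. The knockout was induced in MEFs of Rnf40 loxP/loxP embryos, in which exons 3 and 4 of Rnf40 are flanked by loxP sites, by a tamoxifen-inducible Cre recombinase (CreERT2) expressed from the ubiquitously active Rosa26 locus. For this the cells received 4-hydroxytamoxifen (4-OHT) at 250 nM during 5 days, followed by 3 days free of it. Which alleles the cells labelled Rnf40+/+ carried at Rnf40 and Rosa26, and whether they received 4-OHT, is not given in the sources used here, so the deletion, Cre activity and 4-OHT cannot be told apart. It is also not given whether the 3 libraries of a genotype came from separate embryos or cultures, so the p-values measure only the spread between these libraries, which may be technical.

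NRF2 is a basic leucine zipper transcription factor that pairs with small MAF proteins on antioxidant response elements (AREs) near its target genes. In unstressed cells KEAP1 binds NRF2 in the cytoplasm and, as the adaptor of a CUL3 ubiquitin ligase, directs its degradation. Oxidants and electrophiles modify cysteines of KEAP1, newly made NRF2 then escapes degradation, and the target genes are transcribed. Their products make and recycle glutathione, run the thioredoxin system, supply NADPH, reduce quinones and break down heme. Because NRF2 is regulated largely at the protein level, mRNA measurements show the level of its transcript and of its targets but not the amount of active NRF2.

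Since the ARE is the sequence through which NRF2 reaches its targets, the promoters of the NRF2 antioxidant genes are shown first. RefSeq (GRCm38.p6) held a promoter sequence for 7 of the 10 genes with 9 transcription starts, of which Txnrd1 had 3. Hmox1, Gclc and Gsr had no entry. The ARE core was searched for as TGACNNNGC on both strands in the 250 bases before each start. It was found in 3 of the 7 genes, Nfe2l2, Gclm and Txnrd1, against 11.5% of all 27025 genes with a promoter sequence and 10.2% of all starts. In Nfe2l2 (chr2:75704664-75704913, minus strand) the match TGACTCCGC lay 240 to 232 bases before the start on the strand of the gene. In Gclm (chr3:122245307-122245556, plus strand) the match TGACGGTGC lay on the opposite strand 134 to 126 bases before the start. In Txnrd1 (chr10:82858956-82859205, plus strand) 1 of the 3 starts had the match TGACAAAGC, on the opposite strand and 92 to 84 bases before the start. Srxn1 (chr2:152105274-152105523, plus strand) had no ARE core before its start, but had TGACCTAGC on the opposite strand at bases 29 to 37 after it. With the 50 bases after the start included, 4 of the 7 genes thus held the core, against 14% of all genes. Before its start Srxn1 held the related motif TGANTCAGC, as TGAGTCAGC, 45 to 37 bases before the start. TGANTCAGC contains the AP-1 type letters TGANTCA, was chosen after the sequences had been seen, and occurred in 1.17% of all genes. The 250 bases before each of these 4 starts are printed 5′ to 3′ on the strand of the gene, with the match in capitals, because they hold the sites found for these genes. A match on the opposite strand reads as its reverse complement.
Nfe2l2: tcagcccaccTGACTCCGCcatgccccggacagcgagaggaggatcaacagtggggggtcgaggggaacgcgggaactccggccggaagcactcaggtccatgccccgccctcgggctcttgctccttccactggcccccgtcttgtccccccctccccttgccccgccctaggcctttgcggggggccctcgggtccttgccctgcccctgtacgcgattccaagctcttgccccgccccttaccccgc
Gclm: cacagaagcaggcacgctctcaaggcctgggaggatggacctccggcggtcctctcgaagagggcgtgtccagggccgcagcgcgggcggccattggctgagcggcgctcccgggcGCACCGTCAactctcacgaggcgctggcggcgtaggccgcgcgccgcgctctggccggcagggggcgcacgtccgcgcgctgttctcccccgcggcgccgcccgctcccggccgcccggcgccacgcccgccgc
Txnrd1: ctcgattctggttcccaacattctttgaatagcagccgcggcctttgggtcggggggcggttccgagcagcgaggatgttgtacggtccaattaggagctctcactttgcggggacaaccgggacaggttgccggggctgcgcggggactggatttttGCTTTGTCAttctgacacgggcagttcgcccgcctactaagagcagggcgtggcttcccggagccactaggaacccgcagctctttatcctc
Srxn1: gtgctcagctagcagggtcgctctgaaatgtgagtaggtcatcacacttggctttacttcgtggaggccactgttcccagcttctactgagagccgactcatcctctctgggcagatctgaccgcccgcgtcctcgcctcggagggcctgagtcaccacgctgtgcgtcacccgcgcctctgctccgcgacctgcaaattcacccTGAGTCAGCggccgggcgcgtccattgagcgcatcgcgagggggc
A match shows only that these letters occur, and no match says only that they do not occur in these 250 bases.

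The cells had the markers of their label and the targeted gene was lower in the knockout libraries. Rnf40 had normalized counts of 1278, 1195 and 1096 in Rnf40+/+ and 439, 519 and 487 in Rnf40-/- libraries, a log2 fold change of -1.30 (adjusted p = 4.25e-07, limma). A normalized count is the number of reads on a gene divided by 1 size factor per library. All 10 fibroblast markers had at least 3 reads in every library, but their summed normalized counts were 669465 to 741504 in Rnf40+/+ and 400462 to 403413 in Rnf40-/- MEFs. Of the 10, 8 were called lower in Rnf40-/- MEFs (adjusted p under 0.05, limma), 80% beside 24.1% of all genes tested, while Dcn and Lum were not called. Col1a2 had the largest fall (log2 fold change -2.26). Macrophage markers were present as well: all 13 in the table had at least 3 reads in every library, and their sum was 7002, 7407 and 13163 in Rnf40+/+ and 4495, 4185 and 4755 in Rnf40-/- MEFs, so that Rnf40+/+ replicate 3 stood apart. Much of the sum was Lyz2 (7440 in that library, against 3945 and 4557), and 10 of the 13 markers were higher there than in the other Rnf40+/+ libraries, Cd14, Itgam and Cx3cr1 being the exceptions. Between genotypes 7 of the 13 were called lower in Rnf40-/- MEFs (53.8%, beside 24.1% of all genes tested). Ptprc (log2 fold change 1.37) and Cd14 (0.66) were called higher (15.4%, beside 23.3%). Skeletal muscle markers summed to 1375, 138 and 126 in Rnf40+/+ and 45.9, 28.2 and 49.1 in Rnf40-/- libraries, with Myod1 at 0 throughout. Much of the sum in Rnf40+/+ replicate 1 was Actc1 (937, against 1.02 to 10.2 in the other libraries) and Des (431). Des was called lower in Rnf40-/- MEFs (log2 fold change -2.38, adjusted p = 0.000486, limma). Endothelial markers summed to 139 to 279 in Rnf40+/+ and 225 to 315 in Rnf40-/- MEFs, with Kdr called higher and Emcn called lower. Pecam1 (4.78, 4.08 and 2.40 in Rnf40+/+ libraries) and Cdh5 (2.39, 5.10 and 0.80) passed the filter on low counts only through Rnf40-/- libraries. Their calls as higher are given no weight. Neural markers, mostly Nes and Tubb3, summed to 3239 to 4638 in Rnf40+/+ and 2215 to 2566 in Rnf40-/- MEFs, with Nes called lower. Epithelial sums were 33.7 to 107 and erythroid sums 19.2 to 41.8, with overlap between genotypes and Hbb-b1 at 0. Of the Rnf40+/+ libraries, replicate 1 had the highest endothelial, neural, epithelial and erythroid sums (279, 4638, 107 and 41.8). Krt8 was 58.5 there against 1.02 and 9.58 in replicates 2 and 3, Tek 115 against 11.2 and 16.0. Tubb3 was 2670 against 1275 and 1353, while Emcn and Nes were highest in replicate 2. The part of any of these cells in the values of the NRF2 antioxidant genes was not tested. Depth ranged from 17053436 to 26344170 reads on genes, at which 3 reads corresponded to a normalized count of 2.40 to 3.58, while the NRF2 antioxidant genes had between 536 and 7846 reads in each library. In bulk RNA, fewer cells of a type and less RNA per cell cannot be told apart.

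All 10 NRF2 antioxidant genes had enough reads to be tested, and they did not move in 1 direction. In Rnf40-/- MEFs Gclc, Gclm, Nfe2l2, Txnrd1 and Gsr were higher, Srxn1 was lower, and Keap1, Nqo1, Hmox1 and Slc7a11 did not pass the threshold of an adjusted p under 0.05. The test was limma on log2(normalized count + 1) with Benjamini-Hochberg adjustment over all 16378 genes tested. In the same test 23.3% of all genes were called higher and 24.1% were called lower in Rnf40-/- MEFs, together 47.4%, beside 6 of the 10 genes here. The genotypes did not overlap for 7 of the 10 genes, 5 higher and 2 lower, against 56.5% of all genes tested, 27.8% higher and 28.7% lower. Over the 10 genes the log2 fold changes had a median of 0.16, beside -0.0035 for all genes tested, and fell to 0.061 without Rnf40+/+ replicate 3. Their median absolute log2 fold change was 0.28, beside 0.33 for all genes. The study's cutoffs (mean above 15, unadjusted p under 0.05 and absolute log2 fold change above 1), applied here to limma values and not to those of DESeq, were passed only by Gclc of the 10 genes, while 9.95% of all genes passed them, 4.25% as higher and 5.7% as lower.

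**Figure D1:**
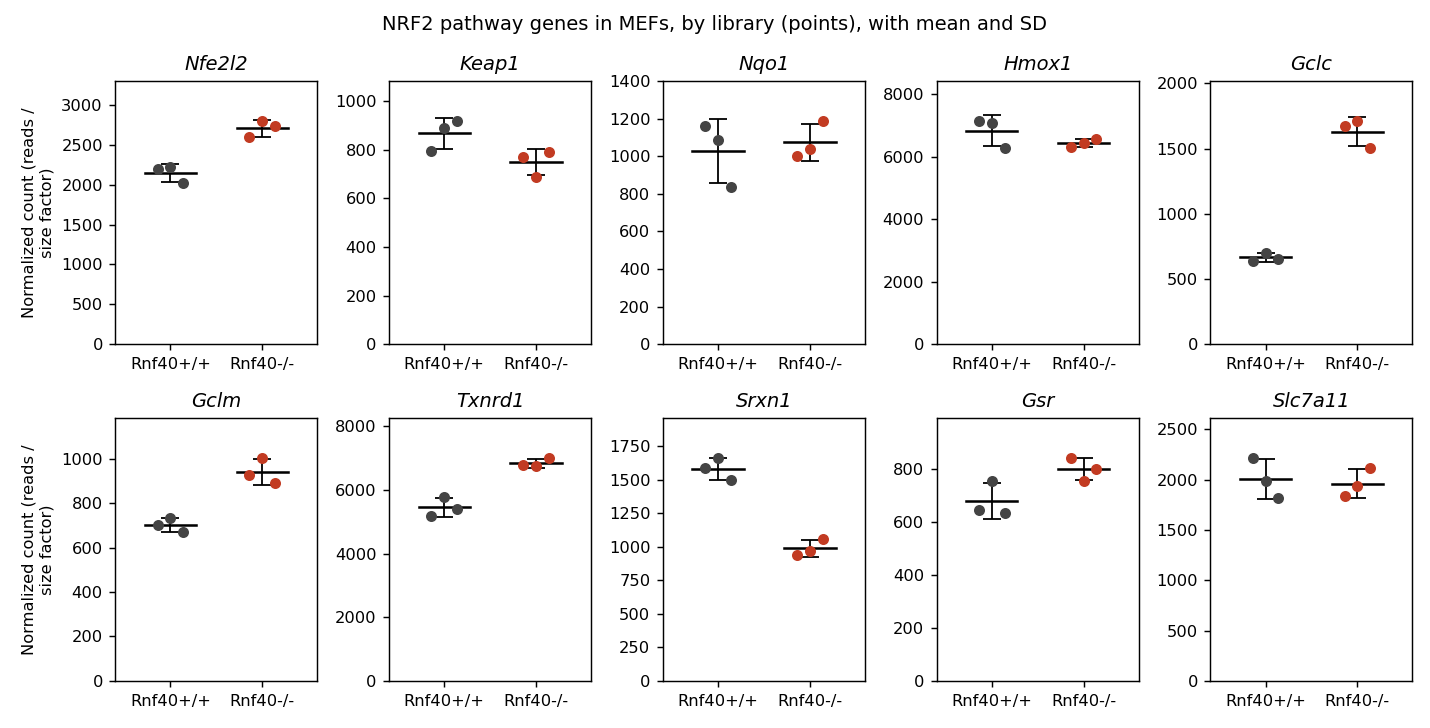
Normalized count of each of the 10 NRF2 antioxidant genes, 1 panel per gene, with 1 point per library, the genotypes on the x axis and a bar at the mean of the 3 libraries with its SD. The points of the genotypes are far apart for Gclc (640.1 to 703 against 1505 to 1709) and Srxn1 (1499 to 1664 against 942 to 1058) and overlap for Nqo1, Hmox1 and Slc7a11.

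Of the regulators, Nfe2l2 was higher in Rnf40-/- MEFs and Keap1 did not pass the threshold. Nfe2l2 (ENSMUSG00000015839, mm9 chr2:75513570-75542698, minus strand) had normalized counts of 2195, 2224 and 2016 in Rnf40+/+ and 2592, 2796 and 2737 in Rnf40-/- libraries. Each Rnf40-/- library was above each Rnf40+/+ library. The mean was 2145 ± 113 (SD, n = 3) in Rnf40+/+ and 2708 ± 105 in Rnf40-/- MEFs, a log2 fold change of 0.34 (standard error 0.066, 95% confidence interval 0.19 to 0.48, adjusted p = 0.00131, limma). This 1.26-fold rise was close to the middle of all genes, of which 49.7% had a larger absolute log2 fold change. Keap1 (ENSMUSG00000003308, chr9:21034174-21043776, minus strand), which encodes the sensor that holds NRF2 low, had normalized counts of 793, 890.2 and 918 in Rnf40+/+ and 769, 688 and 790.3 in Rnf40-/- libraries. The genotypes did not overlap, but the lowest Rnf40+/+ library was only 2.68 above the highest Rnf40-/- library. The log2 fold change was -0.21 (95% confidence interval -0.40 to -0.022) and missed the threshold (adjusted p = 0.0635, limma), while without Rnf40+/+ replicate 1 it was -0.27 and passed it (adjusted p = 0.0254). An exon of Keap1 overlaps the gene model Gm16754 on the other strand. The kit was directional, but the strand setting of the counting is not given, so reads of the pair may not be separated.

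Glutathione synthesis held the member with the largest difference. Gclc (ENSMUSG00000032350, chr9:77602342-77642292, plus strand, 16 exons) encodes the catalytic subunit of glutamate-cysteine ligase, the rate-limiting enzyme of glutathione synthesis. It had normalized counts of 640.1, 703 and 655 in Rnf40+/+ and 1675, 1709 and 1505 in Rnf40-/- libraries, and every Rnf40-/- library was far above every Rnf40+/+ library. The means were 666 ± 32.7 and 1630 ± 110 (SD, n = 3 each), a 2.44-fold difference and a log2 fold change of 1.29 (standard error 0.077, 95% confidence interval 1.12 to 1.46, adjusted p = 1.49e-07, limma). Of all genes tested, 7.23% had a larger absolute log2 fold change, and leaving out any 1 library gave between 1.254 and 1.346.

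Gclm (ENSMUSG00000028124, chr3:121948475-121972902, plus strand) encodes the modifier subunit of the same ligase, which raises the activity of the catalytic subunit. It had normalized counts of 703, 735 and 670.0 in Rnf40+/+ and 929, 1004 and 891 in Rnf40-/- libraries, again with no overlap. The log2 fold change was 0.42 (standard error 0.079, 95% confidence interval 0.25 to 0.59, adjusted p = 0.000922, limma), a 1.34-fold rise. The transcripts of both subunits were thus higher, but by unequal amounts. The ratio of Gclm to Gclc normalized counts was 1.10, 1.05 and 1.02 in Rnf40+/+ and 0.554, 0.587 and 0.592 in Rnf40-/- libraries. Its log2 value fell by 0.87, with no overlap between genotypes (exact permutation test, two-sided, p = 0.1, the smallest that 3 libraries against 3 can give). An exon of Gclm overlaps Gm17494 on the other strand, and 50 nucleotides of its transcript matched Miip at 95% identity or more.

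Slc7a11 and Gsr feed and recycle glutathione. Slc7a11 (ENSMUSG00000027737, chr3:50168858-50247535, minus strand) encodes xCT, the cystine-glutamate exchanger that brings in cystine for glutathione synthesis. Its normalized counts were 2218, 1983 and 1819 in Rnf40+/+ and 1836, 1936 and 2116 in Rnf40-/- libraries. The genotypes overlapped, and the log2 fold change of -0.03 had an interval of -0.21 to 0.15 (adjusted p = 0.795, limma). Its sign was not fixed, at 0.045 without Rnf40+/+ replicate 1 and 0.017 without Rnf40-/- replicate 1. A stretch of 373 nucleotides of the Slc7a11 transcript matched Tuba1a, Tuba1b and Tuba1c on the other strand, so reads there are uncertain. Gsr (ENSMUSG00000031584, chr8:34762995-34808635, plus strand) encodes glutathione reductase, which returns oxidized glutathione to its reduced form with NADPH. It had normalized counts of 647, 758 and 634 in Rnf40+/+ and 843, 758 and 801 in Rnf40-/- libraries. The highest Rnf40+/+ and the lowest Rnf40-/- library were all but equal. The log2 fold change of 0.24 (standard error 0.089, 95% confidence interval 0.045 to 0.43) passed narrowly (adjusted p = 0.0436, limma). The call depended on single libraries: the log2 fold change was 0.21 (adjusted p = 0.108) without Rnf40+/+ replicate 1 and 0.19 (adjusted p = 0.103) without Rnf40+/+ replicate 3. Without Rnf40-/- replicate 1, 2 or 3 it was 0.20, 0.28 and 0.24 (adjusted p = 0.166, 0.0556 and 0.1001).

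The thioredoxin genes Txnrd1 and Srxn1 went in opposite directions. Txnrd1 (ENSMUSG00000020250, chr10:82296696-82360469, plus strand) encodes the cytosolic selenoprotein that reduces thioredoxin with NADPH. Its normalized counts were 5187, 5776 and 5414 in Rnf40+/+ and 6779, 6745 and 7007 in Rnf40-/- libraries, with no overlap. The log2 fold change was 0.33 (standard error 0.063, 95% confidence interval 0.19 to 0.47, adjusted p = 0.00117, limma), a rise of 25.4%. Srxn1 (ENSMUSG00000032802, chr2:151931252-151937112, plus strand, 2 exons) encodes sulfiredoxin, which repairs overoxidized peroxiredoxins. Its normalized counts were 1588, 1664 and 1499 in Rnf40+/+ and 942, 966 and 1058 in Rnf40-/- libraries, so that every Rnf40-/- library was below every Rnf40+/+ library. The mean fell by 37.6%, from 1584 ± 82.8 to 989 ± 61.3 (SD, n = 3 each), with a log2 fold change of -0.68 (standard error 0.074, 95% confidence interval -0.84 to -0.52, adjusted p = 1.61e-05, limma). Of all genes tested, 22.2% had a larger absolute log2 fold change. Srxn1 was the only one of the 10 genes called lower.

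Nqo1 and Hmox1, commonly used as readouts of NRF2 activity, did not pass the threshold. Nqo1 (ENSMUSG00000003849, chr8:109912125-109927106, minus strand) encodes a quinone reductase. It had normalized counts of 1162, 1088 and 838 in Rnf40+/+ and 999, 1037 and 1187 in Rnf40-/- libraries. Rnf40+/+ replicate 3 was the lowest and Rnf40-/- replicate 3 the highest of the 6, and the genotypes overlapped. The log2 fold change was 0.07 (95% confidence interval -0.18 to 0.32, adjusted p = 0.637, limma) and changed sign without Rnf40+/+ replicate 3 (-0.069) or Rnf40-/- replicate 3 (-0.0022). Hmox1 (ENSMUSG00000005413, chr8:77617490-77624495, plus strand) encodes heme oxygenase 1, which opens heme to biliverdin, iron and carbon monoxide, and is also under repression by BACH1. It had normalized counts of 7133, 7089 and 6266 in Rnf40+/+ and 6301, 6437 and 6555 in Rnf40-/- libraries. Rnf40+/+ replicate 3 was the lowest of all 6 libraries and the other Rnf40+/+ libraries were above all Rnf40-/- libraries. The log2 fold change was -0.08 (95% confidence interval -0.23 to 0.063, adjusted p = 0.332, limma), and -0.15 without Rnf40+/+ replicate 3 (adjusted p = 0.0678). The intervals allow a rise of Nqo1 of up to 0.32 and of Hmox1 of up to 0.063 on the log2 scale. Rnf40+/+ replicate 3, with the lowest Nqo1 and Hmox1, was also the lowest Rnf40+/+ library for Nfe2l2, Gclm, Srxn1, Gsr and Slc7a11, but not for Keap1, Gclc and Txnrd1. It had the highest macrophage marker sum (13163 against 7002 and 7407), and the part of these cells in the values was not tested.

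**Figure D2:**
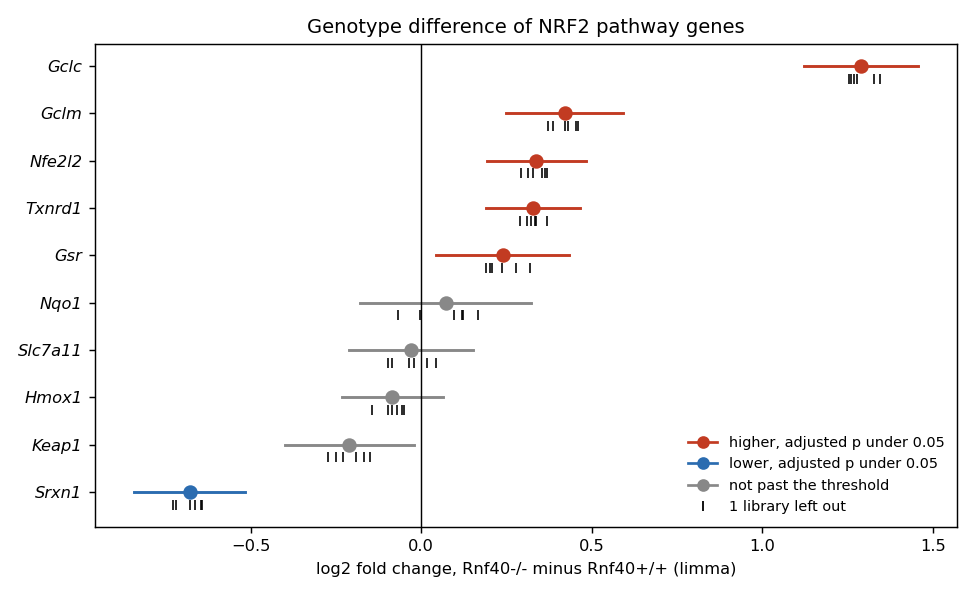
Log2 fold change (Rnf40-/- minus Rnf40+/+) of the 10 NRF2 antioxidant genes on the x axis, as points with 95% confidence intervals from limma (red, higher; blue, lower; grey, not past the threshold), and black ticks for the values with 1 library left out. Gclc at 1.29 and Srxn1 at -0.68 lie farthest from 0, and the intervals of Nqo1, Hmox1 and Slc7a11 include 0.

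Levels of different genes were compared as normalized counts per kilobase of the longest coding transcript. In Rnf40+/+ MEFs the order was Hmox1 (4252 per kilobase), Txnrd1 (1502), Nfe2l2 (867), Nqo1 (663), Srxn1 (563), Gsr (254), Slc7a11 (217), Gclc (195), Keap1 (194) and Gclm (145). Nqo1 and Srxn1 did not differ beyond the spread of their libraries, nor did neighbours in the series from Gsr to Keap1. In Rnf40-/- MEFs the upper end was the same, with Hmox1 (4004 per kilobase), Txnrd1 (1883), Nfe2l2 (1094) and Nqo1 (692). Gclc (476) then stood above Srxn1 (352), Gsr (299), Slc7a11 (213), Gclm (194) and Keap1 (168), and the only neighbours whose libraries overlapped were Slc7a11 and Gclm. By its mean, Gclc thus went from rank 8, among neighbours with overlapping libraries, to rank 5 of the 10 genes. Srxn1 went from rank 5, where it overlapped Nqo1, to rank 6. The order rests on the longest coding transcript, and which transcripts were expressed was not tested.

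**Figure D3:**
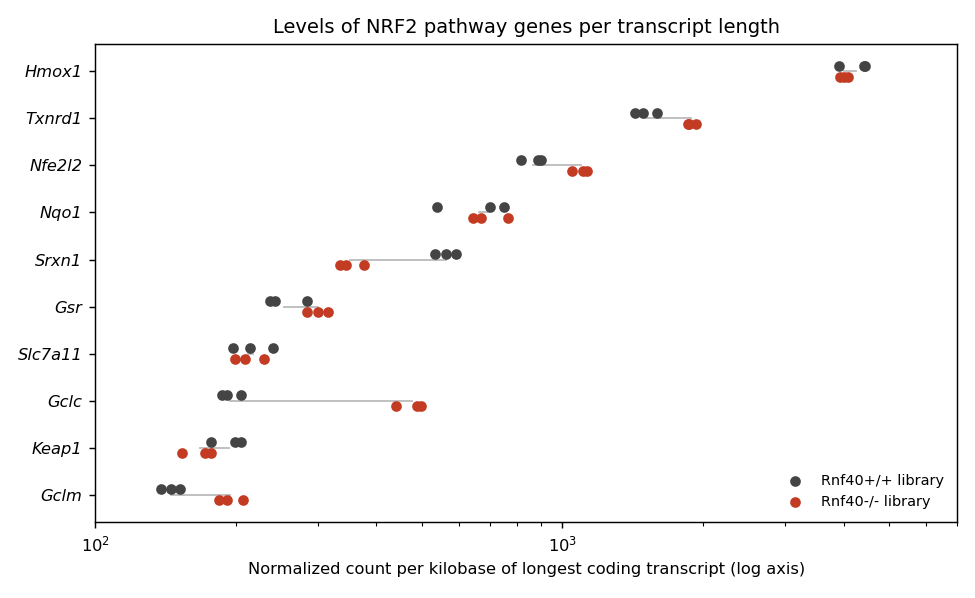
Normalized count per kilobase of transcript for the 10 NRF2 antioxidant genes on a log axis, with 1 point per library, black for Rnf40+/+ and red for Rnf40-/-, and a grey line joining the means of the genotypes. Hmox1 is the highest in both genotypes (4252 and 4004 per kilobase), and Gclc moves from 195 to 476.

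To place these genes in their pathway, a list of 111 further genes was written by role, of which 110 were in the table (Msrb1 was not matched) and 106 were tested. Of these, 25 were higher and 35 lower in Rnf40-/- MEFs and 46 were not called. For 4 of the 106 the filter was not passed in every library of both genotypes, and without them 22 were higher and 35 lower of 102. The median log2 fold change of the 106 was -0.033, with -0.068 without Rnf40+/+ replicate 1, -0.012 without Rnf40+/+ replicate 2 and 0.014 with upper-quartile normalization. The share called higher was 23.6%, near the 23.3% of all genes, and the share called lower was 33.0%, beside 24.1%. The thioredoxin and NADPH groups held the most genes called lower for their size. Because the lists were chosen with earlier results of these data known, the shares describe these lists only.

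Among the 13 partners and brakes of NRF2, 5 were higher (38.5%, beside 23.3% of all genes tested), 4 lower (30.8%, beside 24.1%) and 4 not called. Their median log2 fold change was 0.17 and fell to 0.026 without Rnf40+/+ replicate 1. Of the small MAF genes, whose products pair with NRF2 and with BACH1, Mafk had normalized counts of 1273, 1330 and 1101 in Rnf40+/+ and 2234, 2220 and 2501 in Rnf40-/- libraries (log2 fold change 0.91, adjusted p = 3.99e-06, limma). Maff was also higher (0.40, adjusted p = 0.00571), while Mafg had a log2 fold change of -0.09 (adjusted p = 0.595), from -0.21 without Rnf40-/- replicate 2 to 0.048 without Rnf40-/- replicate 1. Bach1, the repressor that competes for AREs and is released by heme, fell from 939 ± 30.2 to 736 ± 57.2 (SD, n = 3 each; -0.35, adjusted p = 0.00318), and its relative Bach2 had a log2 fold change of 0.17 (adjusted p = 0.412), from 0.0094 without Rnf40+/+ replicate 1 to 0.29 without Rnf40+/+ replicate 2. Among the components of the KEAP1 ligase, Cul3 was higher (0.45, adjusted p = 0.000459) and Rbx1 had a log2 fold change of 0.09 (adjusted p = 0.368), from 0.026 without Rnf40+/+ replicate 1 to 0.17 without Rnf40+/+ replicate 3. Transcripts of proteins that compete with NRF2 for KEAP1 were mixed. Sqstm1, which encodes the autophagy receptor p62 and is itself an NRF2 target, had normalized counts of 11828, 12186 and 11701 in Rnf40+/+ and 6260, 6201 and 6849 in Rnf40-/- libraries, all lower (log2 fold change -0.89, adjusted p = 6.48e-07, limma).

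Dpp3 and Palb2, whose products can also bind KEAP1, had log2 fold changes of 0.21 (adjusted p = 0.0333, limma) and -0.82 (adjusted p = 0.0289), and both calls rested on single libraries. That of Dpp3 was lost without Rnf40+/+ replicate 1 (0.15, adjusted p = 0.128), Rnf40-/- replicate 1 (0.20, adjusted p = 0.111) or Rnf40-/- replicate 3 (0.18, adjusted p = 0.113). That of Palb2, with means of only 48.8 and 26.3, was lost without Rnf40+/+ replicate 1 (-0.58, adjusted p = 0.125) or 2 (-0.89, adjusted p = 0.0520), and without Rnf40-/- replicate 1 (-0.77, adjusted p = 0.0817), 2 (-0.84, adjusted p = 0.0618) or 3 (-0.85, adjusted p = 0.0596). Of the other CNC factors, relatives of NRF2, Nfe2l1 was lower (log2 fold change -0.26, adjusted p = 0.00606, limma). Nfe2l3 had normalized counts of 7.17, 4.08 and 7.19 in Rnf40+/+ and 25.5, 47.0 and 25.5 in Rnf40-/- libraries. It passed the filter on low counts only through its Rnf40-/- libraries, so its call as higher is given no weight, and without it 4 of 12 genes of the list were higher and 4 lower. Nfe2, a blood cell factor, had normalized counts of 210.2, 259 and 541 in Rnf40+/+ and 318, 501 and 508 in Rnf40-/- libraries (log2 fold change 0.48, adjusted p = 0.186, limma), and was called without Rnf40+/+ replicate 3 (0.89, adjusted p = 0.000826). That library had the highest macrophage marker sum (13163, against 7002 and 7407 in the other Rnf40+/+ libraries). The Rnf40-/- libraries, of which replicates 2 and 3 had Nfe2 near that of Rnf40+/+ replicate 3, had sums of 4495, 4185 and 4755. The part of these cells in the Nfe2 values was not tested.

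In the glutathione list, 8 of 35 tested genes were higher (22.9%, beside 23.3% of all genes tested), 9 lower (25.7%, beside 24.1%) and 18 not called. The median log2 fold change was 0.0050 and ranged from -0.055 (without Rnf40+/+ replicate 1) to 0.035 (without Rnf40-/- replicate 2), below 0 also without Rnf40+/+ replicate 3 or Rnf40-/- replicate 1 or 3. Gpx1, the cytosolic glutathione peroxidase, had normalized counts of 5590, 5646 and 5623 in Rnf40+/+ and 2541, 2421 and 2770 in Rnf40-/- libraries, all lower (-1.13, adjusted p = 1.25e-07, limma). Gpx4, the peroxidase of membrane lipids, had a log2 fold change of 0.06 (adjusted p = 0.608), from -0.017 without Rnf40+/+ replicate 1 to 0.16 without Rnf40+/+ replicate 3. Transcripts of the glutathione S-transferases, which attach glutathione to electrophiles, went both ways. Gstm6 (1.67, adjusted p = 6.36e-06) and Gstm7 (1.48, adjusted p = 1.05e-05) were higher from means of 56.0 and 67.7. Gsta1, an NRF2 target in liver, had normalized counts of 0, 0 and 6.39 in Rnf40+/+ and 31.6, 18.8 and 36.8 in Rnf40-/- libraries. It passed the filter on low counts only through its Rnf40-/- libraries, so its call as higher is given no weight. Without it and Gsta3, for which not every Rnf40+/+ library passed the filter, 7 of 33 genes of the list were higher and 9 lower. Gstp1 was lower (-1.11, adjusted p = 5.88e-06), though its reads may be shared with its near copy Gstp2 (-1.09, adjusted p = 6.76e-07). The abundant Gsto1 had means of 14336 and 14483 (log2 fold change 0.02, adjusted p = 0.872), and its sign turned without Rnf40+/+ replicate 1 (-0.0084) or 3 (-0.010) or Rnf40-/- replicate 3 (-0.020). The Gstm genes are also close paralogs, so their separate values are uncertain.

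In the thioredoxin and peroxiredoxin list, 9 of 17 genes were lower (52.9%, beside 24.1% of all genes tested), 2 were higher (11.8%, beside 23.3%) and 6 were not called. The median log2 fold change was -0.27. The 2-cysteine peroxiredoxins are the substrates of sulfiredoxin. Prdx1, the cytosolic NRF2 target, was higher (means 16227 and 20004, log2 fold change 0.30, adjusted p = 0.00686, limma), and Prdx2 was lower (-0.32, adjusted p = 0.00276). Prdx4, the peroxiredoxin of the endoplasmic reticulum, had normalized counts of 1238, 1035 and 1058 in Rnf40+/+ and 384, 313 and 347 in Rnf40-/- libraries, the largest fall of the list (-1.67, adjusted p = 1.64e-07, limma). Prdx5 (-0.88, adjusted p = 1.44e-05), Txnrd3 (-0.69, adjusted p = 0.000769) and the methionine sulfoxide reductases Msra (-0.69, adjusted p = 0.000974) and Msrb3 (-0.75, adjusted p = 5.07e-06) were lower as well. The direction of Srxn1 was thus shared by most called genes of this list, and that of Txnrd1 was not.

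NADPH drives both glutathione reductase and thioredoxin reductase. Of the 10 genes of NADPH supply, 5 were lower (50%, beside 24.1% of all genes tested) and 4 were not called. The 1 gene called higher (10%, beside 23.3%) was Nnt (0.19, adjusted p = 0.0457, limma). The median log2 fold change was -0.23. The transcripts of all 3 enzymes of the oxidative pentose phosphate pathway were lower, namely G6pdx (-0.53, adjusted p = 0.0023), Pgls (-0.30, adjusted p = 0.00762) and Pgd (-0.77, adjusted p = 6.75e-06). Idh1, the cytosolic isocitrate dehydrogenase, had normalized counts of 2471, 2501 and 2404 in Rnf40+/+ and 1181, 1260 and 1239 in Rnf40-/- libraries (-1.003, adjusted p = 2.17e-07, limma), and its mitochondrial counterpart Idh2 had a log2 fold change of -0.96 (adjusted p = 3.22e-06). The malic enzyme gene Me1, an NRF2 target, had a log2 fold change of 0.07 (adjusted p = 0.459), from 0.0083 without Rnf40+/+ replicate 3 to 0.12 without Rnf40+/+ replicate 2. The transketolase gene Tkt had one of -0.17 (adjusted p = 0.0526). Tkt passed the threshold without Rnf40+/+ replicate 1 (-0.21, adjusted p = 0.0317) or Rnf40-/- replicate 3 (-0.21, adjusted p = 0.0477). The call of Nnt, which encodes the mitochondrial transhydrogenase, was lost without Rnf40+/+ replicate 1 (0.16, adjusted p = 0.130) or 3 (0.17, adjusted p = 0.0876), and without Rnf40-/- replicate 1 (0.19, adjusted p = 0.129), 2 (0.21, adjusted p = 0.0771) or 3 (0.17, adjusted p = 0.128).

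In the heme, iron and quinone list, 7 of 20 tested genes were higher (35%, beside 23.3% of all genes tested), 5 lower (25%, beside 24.1%) and 8 not called. The median log2 fold change was 0.16 (0.096 without Rnf40-/- replicate 3). Genes of detoxifying enzymes went both ways. Aldh3a1, an aldehyde dehydrogenase, had normalized counts of 8.36, 6.12 and 6.39 in Rnf40+/+ and 31.6, 47.0 and 59.5 in Rnf40-/- libraries. It too passed the filter only through its Rnf40-/- libraries, and without it 6 of 19 genes were higher. Ugt1a6a, which attaches glucuronic acid to phenols, rose from a mean of 172 to 330.5 (0.93, adjusted p = 2.45e-05, limma), although the Ugt1a genes share most of their exons and cannot be well separated. Akr1c14 was higher (0.87, adjusted p = 0.000467), but its fellow aldo-keto reductase gene Akr1b8 was lower (-0.58, adjusted p = 1.93e-05). Blvrb, a biliverdin reductase downstream of heme oxygenase, was also lower (-0.71, adjusted p = 0.000377).

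The transcripts of the ferritin subunits that store iron released from heme split. The heavy chain gene Fth1 had a log2 fold change of 0.28 (adjusted p = 0.0201, limma) and the light chain gene Ftl1 one of -0.28 (adjusted p = 0.0419), and neither call held in every subset of libraries. That of Fth1 was lost without Rnf40+/+ replicate 1 (0.21, adjusted p = 0.0737), Rnf40-/- replicate 1 (0.27, adjusted p = 0.0762) or Rnf40-/- replicate 3 (0.22, adjusted p = 0.0901). That of Ftl1 was lost without Rnf40+/+ replicate 3 (-0.19, adjusted p = 0.101), Rnf40-/- replicate 1 (-0.28, adjusted p = 0.128) or Rnf40-/- replicate 2 (-0.21, adjusted p = 0.200). Without Rnf40-/- replicate 1 or 2 the list held 3 genes called lower in place of 5.

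**Figure D4:**
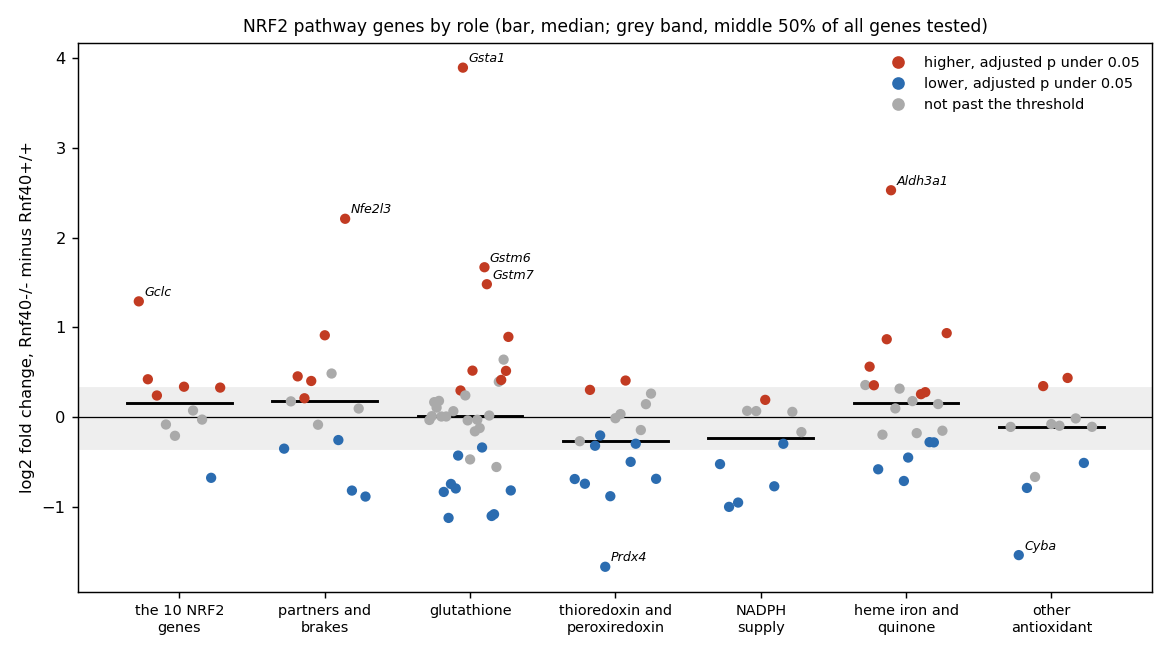
Log2 fold change (Rnf40-/- minus Rnf40+/+) of every tested gene of the 10 NRF2 antioxidant genes and of the pathway lists by role, 1 point per gene (red, higher; blue, lower; grey, not past the threshold), with a bar at the median of each list and a grey band between the quartiles of all genes tested (-0.35 and 0.32). The medians lie at 0.16 for the 10 genes, -0.27 for the thioredoxin and peroxiredoxin list and -0.23 for NADPH supply. The lowest point is Prdx4 (-1.67), and the highest 3, Gsta1, Aldh3a1 and Nfe2l3, passed the filter on low counts only through Rnf40-/- libraries.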

How the data were processed

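RNA of 3 Rnf40+/+ and 3 Rnf40-/- MEF libraries was sequenced after a directional library preparation. The submitters' processing notes name Bowtie2 (version 2.1.0), DESeq (version 1.14.0) and mm9, and the counting tool and its strand setting are not given in the sources used here. The deposited signal is a normalized count per gene, for which the authors divided reads by DESeq size factors. Multiplied back by the size factor of its library, each value gave a whole number of reads within 0.01 read in 100% of cases, and these reads were recovered. Reads on genes ranged from 17053436 to 26344170 per library, and 3 reads were taken as the limit of detection, for counting error only.

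Applied to the recovered reads, filterByExpr of edgeR (version 4.0.16) kept 16378 genes. These were fitted with limma (version 3.58.1) using lmFit and trended eBayes on log2(normalized count + 1), a scale that understates the change of low genes. Genotype was the single covariate, and p-values were adjusted by Benjamini-Hochberg. Alternatives were TMM, DESeq2 size factors and upper-quartile normalization, the quasi-likelihood test of edgeR and the Wald test of DESeq2 (version 1.42.0) on the recovered reads, no filter, at least 10 reads in every library, pseudocounts of 0.1 and 10, a replicate block and each library left out in turn. The fits were tested on simulated data. The count test of edgeR on the recovered reads called 3857 genes higher and 3940 lower.

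The genes named are the 10 NRF2 antioxidant genes, Rnf40, all 13 partners and brakes, and in each other list up to 5 called genes with the largest absolute log2 fold change plus the 2 with the highest mean. Gstp2, Nnt and the single cell type markers were named after their values were seen. The NRF2 antioxidant genes and the lists were chosen with earlier results of these data known. Positions are from the GENCODE annotation of mm9 and promoters from RefSeq (GRCm38.p6). Near copies of the longest coding transcript of each of the 10 genes were sought among coding transcripts with BLAST (version 2.17.0). The limits were 95% identity over at least 50 nucleotides. Noncoding pseudogenes were not searched, and near copies of the pathway list genes were not sought. R (version 4.3.3) and Python (version 3.11.15) were used. No pair of libraries was a duplicate, as the chi-square per gene was 5.05 or more.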

Additional observations from a re-analysis of the deposited data

How the results depend on the processing

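Of 296 values recomputed under the alternatives, 279 did not change materially: a tested value kept its direction and side of the threshold, a count stayed within 1.5 times, and a median stayed within the SD between replicates. Gclc, Gclm, Nfe2l2, Txnrd1 and Srxn1 were called in the same direction under all 16 alternatives, with log2 fold changes of 1.254 to 1.346, 0.37 to 0.47, 0.29 to 0.39, 0.29 to 0.38 and -0.73 to -0.63. The call of Gsr was lost with the Wald test of DESeq2 (0.24, adjusted p = 0.0534) and with no filter (0.24, adjusted p = 0.0526), where more genes were tested, and leaving out 1 library gave 0.19 to 0.32. Slc7a11 reversed with upper-quartile normalization (0.018) and without Rnf40+/+ replicate 1 (0.045) or Rnf40-/- replicate 1 (0.017), with a range of -0.098 to 0.045 over single libraries left out. Nqo1 reversed without Rnf40+/+ replicate 3 (-0.069) or Rnf40-/- replicate 3 (-0.0022), with a range of -0.069 to 0.17, and Keap1 ranged from -0.27 to -0.15. The median of the 10 genes ranged from 0.061 (without Rnf40+/+ replicate 3) to 0.22, and the number called lower from 1 to 2 (2 without Rnf40+/+ replicate 1). The causes of these changes were not tested. Among the pathway genes, Palb2 (adjusted p = 0.0524), Nnt (0.0558) and Ftl1 (0.0659) were lost with no filter, and Nnt with the Wald test of DESeq2 (0.19, adjusted p = 0.0584). Ftl1 was lost with upper-quartile normalization (-0.23, adjusted p = 0.0777), which left 3 genes of its list called lower. Tkt was called lower with TMM (adjusted p = 0.0460), the edgeR test (0.04996), at least 10 reads in every library (0.0497) and the replicate block (0.0475). Each of these gave 6 NADPH supply genes called lower. Upper-quartile normalization moved the share of higher among called genes from 49.1% to 54.9%.

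The replicate numbers were shared by both genotypes. Deviations of same-numbered libraries had correlations of 0.0118, 0.0174 and 0.0212, and those of other numbers lay between -0.0531 and 0.0371. Whether same-numbered libraries were prepared as pairs is not given, and these correlations cannot settle it, because a pair need not share a deviation. With the replicate number as a block, 4021 genes were called higher and 4196 lower, Keap1 was called lower (-0.21, adjusted p = 0.0455), which made 2 of the 10 genes called lower, and Nfe2 was called higher (0.48, adjusted p = 0.0111).

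The ratio of Gclm to Gclc kept its direction under all 8 alternatives tried on it (log2 difference -0.89 to -0.84), and its test cannot pass 0.05 at this size.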

Other observations

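Beside the glutathione, thioredoxin and NADPH genes, a list of 11 other antioxidant genes gave 2 higher (18.2%, beside 23.3% of all genes tested), 3 lower (27.3%, beside 24.1%) and 6 not called, with a median log2 fold change of -0.11. Sod1, the cytosolic superoxide dismutase, had normalized counts of 3248, 3276 and 3800 in Rnf40+/+ and 4671, 4211 and 5081 in Rnf40-/- libraries, with no overlap (log2 fold change 0.43, adjusted p = 0.00117, limma). The secreted superoxide dismutase gene Sod3 was lower (-0.51, adjusted p = 0.000484). Cyba, a subunit of the NADPH oxidases that make superoxide, had normalized counts of 1391, 1393 and 2223 in Rnf40+/+ and 561, 486 and 638 in Rnf40-/- libraries (-1.54, adjusted p = 1.09e-05, limma). The high value was that of Rnf40+/+ replicate 3, which also had the highest macrophage marker sum (13163, against 7002 and 7407 in the other Rnf40+/+ libraries), and the part of these cells in the value was not tested. Nox4, an NADPH oxidase present in fibroblasts, was higher (0.34, adjusted p = 0.0161, limma), but not without Rnf40+/+ replicate 1 (0.25, adjusted p = 0.0574), Rnf40-/- replicate 1 (0.33, adjusted p = 0.0617) or Rnf40-/- replicate 2 (0.34, adjusted p = 0.0507), when 1 gene of the list was called higher.

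The metallothionein gene Mt1, which binds zinc and copper, had normalized counts of 2066, 1867 and 4331 in Rnf40+/+ and 1783, 1281 and 1408 in Rnf40-/- libraries. It was called lower (-0.79, adjusted p = 0.0184, limma), with Rnf40+/+ replicate 3 far above the other libraries of its genotype, and without that library the log2 fold change was -0.41 (adjusted p = 0.00698). The call was lost without Rnf40-/- replicate 2 (-0.69, adjusted p = 0.0844) or 3 (-0.76, adjusted p = 0.0651) and with the Wald test of DESeq2 (-0.88, adjusted p = 0.0709).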
